A study of Mus musculus with 4 samples.

Results

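Lysosome and cathepsin genes were followed through the infarcted mouse heart as a list of 37 genes, out of 32285 genes in the count tables, that was named by gene symbol with earlier results of these data known. The list holds 11 proteases, 6 membrane proteins, 7 glycosidases, 5 genes of lipid handling, 2 cofactors and 6 genes of the proton pump. All 37 symbols were found once in the tables, and 34 of them had at least 1000 unique molecular identifiers (UMIs, each standing for 1 captured mRNA molecule) over the spots used. Counted without the lowest quartile of spots defined below, 28 members reached that minimum. Gla, Glb1 and Atp6v0d2 were below it, with 142, 920 and 87 UMIs.

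The sections came from hearts of female ICR mice, 12 weeks old and with no transgene named, whose left anterior descending coronary artery was tied off for good to give a myocardial infarction (MI). Visium spatial transcriptomics read 1 fresh frozen section of 1 mouse on each of days 1, 4, 7 and 14 after surgery. No section of an uninjured or sham-operated heart was analysed here, and with 1 mouse per day a day and a mouse cannot be told apart. Each Visium spot is a small patch of tissue that can hold several cells, so a value is a share of the RNA in such patches. Spots were ranked within each section by the share of their UMIs from Myh6 and Myl2, which encode contractile proteins of cardiomyocytes, and cut into 4 quartiles of equal numbers of spots. The lowest quartile is therefore the tissue with least cardiomyocyte RNA and the highest quartile the tissue with most.

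Lysosomes are acidic vesicles in which proteins, glycans and lipids taken up from outside the cell or from the cell's own worn parts are broken down. A proton pump in the lysosomal membrane keeps the lumen acidic, which the enzymes need, and heavily glycosylated membrane proteins line and protect it. Macrophages, which clear dead cardiomyocytes after an infarct, are known for abundant lysosomes, and some cathepsins are also secreted and can cut extracellular matrix.

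After removal of spots rich in hemoglobin RNA, 7503 of 9102 spots remained, with 9292678 to 15713779 UMIs a section and 419 to 522 spots a quartile. The same spot barcodes recur between sections because they mark positions on the slide and not cells, and 1332 of 3178 were used in all 4. As a check of the labelled tissue, 8 cardiomyocyte markers summed to 5.01% to 5.72% of UMIs in the highest quartiles. In the lowest quartiles they summed to 2.95%, 1.11%, 1.27% and 3.96% on days 1, 4, 7 and 14. On day 14 the lowest quartile thus had 0.738 times the sum of the highest. The lowest quartile did not hold the same kind of tissue on every day. Spots with a Myh6 and Myl2 share under 0.5% gave 75.5% and 89.7% of its UMIs on days 4 and 7, but 8.38% on day 1 and 12.9% on day 14. The 10 fast skeletal muscle markers made up 2.03% of the UMIs of the lowest quartile on day 7 and at most 0.00199% on the other days.

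For 31 of the 37 members a promoter sequence from RefSeq on GRCm38.p6 was at hand, taken as 250 bases before to 50 bases after an annotated start. Ctsb, Ctsh, Npc1, Asah1, Atp6v0d2 and Atp6v1b2 were not in the set of promoters used and were not read. The letters CACGTG, the core of the element bound by the lysosomal transcription factor TFEB and by other basic helix-loop-helix factors, occurred in 10 of these 31 members (32.3%), against 8.09% of the 27025 genes with a promoter. The 8-letter form TCACGTGA, which contains it, occurred in 5 of 31 (16.1%), against 1.12% of all genes. Both read the same on either strand. The stretches around the match in the 5 genes with the longer form, and in Lamp1, which held CACGTG 4 times, are shown 5′ to 3′ on the gene's strand with CACGTG in capitals, because they are what a subset of members shares that the choice of list did not use.
Ctsa, chr2:164833749-164833778, plus strand: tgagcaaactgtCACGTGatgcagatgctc
Ctsd, chr7:142387908-142387937, minus strand: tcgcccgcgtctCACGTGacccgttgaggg
Atp6v0d1, chr8:105566050-105566079, minus strand: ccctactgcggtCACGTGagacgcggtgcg
Atp6v1a, chr16:44139373-44139402, minus strand: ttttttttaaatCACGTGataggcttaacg
Gla, chrX:134601215-134601244, minus strand: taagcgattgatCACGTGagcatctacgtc
Lamp1, chr8:13159088-13159117, plus strand: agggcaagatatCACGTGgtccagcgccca

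The matched letters began 12, 98, 3, 131, 227 and 61 bases before the annotated start in that order. The other 4 members with CACGTG were Ctsl, Lgmn, Gaa and Glb1. Of the members with these letters, Ctsa, Ctsd, Atp6v0d1, Lgmn, Ctsl and Atp6v1a were called higher in the lowest quartile in the test below. So were 26 of all 34 members tested and 35.2% of all genes tested. Atp6v1a reached the UMI minimum only through that quartile. Lamp1 and Gaa were not called, and Gla and Glb1 were below the UMI minimum of that test. The letters were not found in the windows of Ctss, Ctsk, Cd68, Laptm5 or Ctsz, which had the largest differences between quartiles described below. Absence was common, since only 32.3% of the members read and 8.09% of genes with a promoter held the letters. Whether the letters go with the differences between quartiles was not tested. A match describes the sequence and is not a measurement of binding.

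The first question was how members differ between the tissue with least and the tissue with most cardiomyocyte RNA. Summed over the 37 members, 0.747%, 2.07%, 1.36% and 0.617% of all UMIs of the lowest quartile were member UMIs on days 1, 4, 7 and 14. The highest quartile held 0.459%, 0.412%, 0.435% and 0.373%. The sum was thus 1.63, 5.01, 3.13 and 1.65 times higher in the lowest quartile, in 4 of 4 sections. The mean log2 ratio was 1.35 ± 0.79 (SD, n = 4 sections), and in an exact two-sided sign-flip permutation test 2 of 16 sign assignments were as extreme, which is the smallest p that 4 sections allow. The second-lowest quartile held 0.578%, 0.772%, 0.718% and 0.359%, and the second-highest 0.434%, 0.42%, 0.469% and 0.357%, so that on day 14 the second-lowest quartile was not above the highest one.

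**Figure D1:**
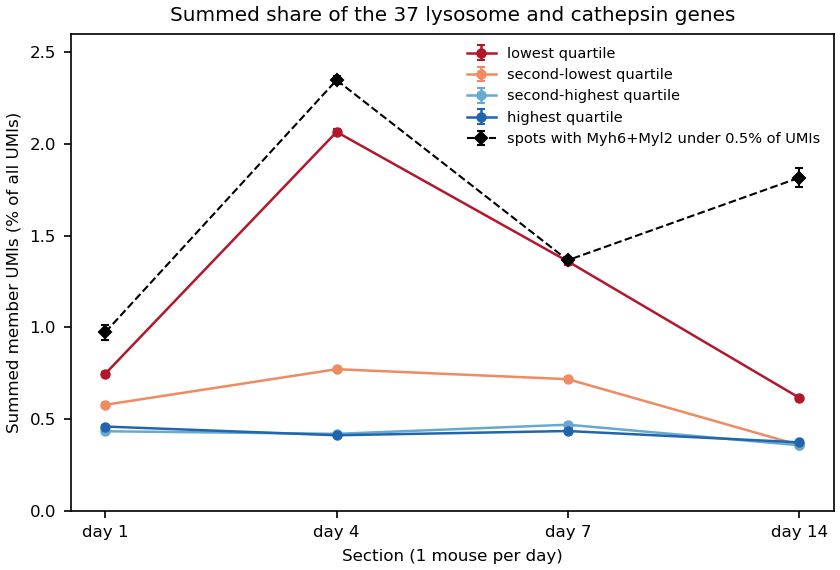
Summed UMIs of the 37 members as a percentage of all UMIs (y axis) in each section (x axis, 1 mouse per day) for the 4 quartiles of spots and for spots with a Myh6 and Myl2 share under 0.5% (dashed). Bars are 95% exact binomial intervals for counting error. The lowest quartile reached 2.07% on day 4 and was at 0.617% on day 14, while the spots under 0.5% stood at 1.82% on day 14 and the highest quartile stayed between 0.373% and 0.459%.

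Gene by gene, the 16 libraries made by summing UMIs per section and quartile were tested with edgeR's quasi-likelihood test with the section as a block, and p-values were adjusted over all 4767 genes tested. Of the 34 members tested, 26 were higher in the lowest than in the highest quartile, 1 was lower, and 7 did not pass. Atp6v1a, Cd68, Ctsk, Gusb, Neu1 and Tcirg1 reached the UMI minimum only through the lowest quartile, where they were high, and all 6 are among the 26. Over the 28 members that reached it without that quartile, 20 were higher, 1 was lower and 7 did not pass, with a median log2 fold change of 1.08, against 28.9% higher and a median of -0.12 over the 3673 genes that did so. The counts below over the 34 tested members include these 6 and were not repeated without them. This holds for the counts by role, in the splits and between days as well. Over all genes tested, 35.2% were higher and 32.5% were lower, so most genes tested differed between these quartiles. The median log2 fold change was 1.35 over the tested members and 0.05 over all genes. In CPM, counts of the gene per 1000000 UMIs of the same spots, 30 of 34 tested members were higher in the lowest quartile in all 4 sections, against 50% of all genes tested. With total UMIs in place of the scaling of edgeR (TMM, which sets the bulk of genes to no change), the median of all genes moved to 0.46, calls over all genes went from 1676 higher and 1548 lower to 2578 and 938, and 31 members were higher and none lower. Fold changes below are relative to the TMM scale, on which they come out smaller than ratios of CPM.

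The same spots differed in cell type markers. The 15 macrophage markers, none of them a member, summed to 0.166% to 0.816% in the lowest quartiles and to 0.0408% to 0.061% in the highest, with 1 of the 15 at 0 in the highest quartile of day 4, and 11 of 11 tested were higher. The 8 fibroblast markers summed to 0.231% to 4.1% and to 0.115% to 0.171%, and 7 of 8 were higher. Both smooth muscle markers tested were higher too, with ratios of the list's sum from 1.96 to 11.2 over the sections, as was the 1 neutrophil marker tested, with ratios of the sum from 6.9 to 39.9. All 8 fast skeletal muscle markers tested were higher, with a median log2 fold change of 6.38, the bulk of their UMIs being in the day 7 section. Of 5 endothelial markers tested 1 was higher, 1 lower and 3 were not called, with ratios of the sum from 1.11 to 1.74. Of 6 markers of lipid-handling macrophages 5 were higher and 1, Lpl, was lower (-1.99, SE 0.37, adjusted p = 0.000484). The ratios of their sum ran from 0.552 on day 1 to 2.83 on day 4. In the highest quartiles these 6 summed to 0.312% to 0.409%, above the 15 macrophage markers there. Their sum is therefore not a measure of macrophage RNA alone. More cells of such a type in a spot and more RNA per cell cannot be told apart, and the part of these cell types in the members' values was not tested beyond the splits by marker level that follow.

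Among the proteases, 10 of 11 were higher and none was lower, against 35.2% of all genes tested that were higher. The 10 include Ctsk, which reached the UMI minimum only through the lowest quartile. Values follow in the order of days 1, 4, 7 and 14. Ctss was at 135, 791, 414 and 88.3 CPM in the lowest quartile and at 10.7, 23.2, 13.8 and 12.6 in the highest quartile. Ctss encodes cathepsin S, a cysteine protease that trims the invariant chain of MHC class II in antigen-presenting cells, and its 4 lowest-quartile values were far above its 4 highest-quartile values. The log2 fold change, 3.74 (SE 0.41, adjusted p = 3.14e-05), was the largest of the 34 members tested. Ctsz was at 191, 649, 435 and 143 CPM in the lowest quartile and at 34.1, 39.2, 40.7 and 33.3 in the highest quartile. Cathepsin Z, a carboxypeptidase, was higher by 2.62 (SE 0.27, adjusted p = 2.35e-05), and its groups did not overlap. The share of all genes without such overlap was not counted. Lamp1 and Scarb2, which did not pass, had no overlap either. A lack of overlap, here and for the members below, therefore does not set called members apart.

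Ctsk encodes cathepsin K, the collagen-cutting enzyme of osteoclasts. It lies close to Ctss on GRCm38 in GENCODE vM21, with Ctsk at chr3:95499256-95509362, plus strand and Ctss at chr3:95526786-95556403, plus strand. Ctsk was at 11, 170.0, 179 and 47 CPM in the lowest quartile and at 5.85, 10.3, 5.76 and 6.9 in the highest quartile. The ratio of lowest over highest quartile on day 1 was 1.87 (95% interval 1.00 to 3.62), and on day 7 it was 31.1 (95% interval 18.5 to 56.3). The log2 fold change was 2.98 (SE 0.47, adjusted p = 0.000198). The 5 osteoclast markers Acp5, Calcr, Oscar, Dcstamp and Ocstamp, none a member, summed to 0.00117% to 0.0133% of the lowest quartiles, and 0 to 3 of the 5 were at 0 there. In the highest quartile they summed to 0.000206%, 0.000342%, 0.000192% and 0.000119% on days 1, 4, 7 and 14, which is few UMIs. The ratios of the sums, lowest over highest quartile, were 5.67, 38.7, 59.9 and 22.2, and are uncertain for that reason. Acp5 is also counted among the other lysosome-related genes below. None of the 5 markers reached the UMI minimum for a test.

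Ctsd, encoding the aspartic protease cathepsin D, and Ctsb, encoding the cysteine protease cathepsin B, had the most UMIs of the proteases. Ctsd was at 1176, 3482, 2244 and 1078 CPM in the lowest quartile and at 931, 828, 902 and 792 in the highest quartile. Its log2 fold change was 0.66 (SE 0.21, adjusted p = 0.0156), and it lost the call without the day 4 section (0.40, adjusted p = 0.102) or the day 7 section (0.59, adjusted p = 0.0942). Ctsb was at 1198, 3504, 1838 and 811 CPM in the lowest quartile and at 590.3, 522, 571 and 477 in the highest quartile. Cathepsin B was higher by 1.17 (SE 0.24, adjusted p = 0.000856), and every lowest-quartile value lay above every highest-quartile value.

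The other proteases that were higher included Ctsc, which encodes the activator of granule serine proteases in leukocytes (2.31), and Lgmn, which encodes the asparaginyl protease legumain that processes other cathepsins (1.71). Ctsh, an aminopeptidase (1.56), Ctsl, a broad cysteine protease (1.32), and Ctsa, a carboxypeptidase that also protects a galactosidase and a sialidase (0.98), were higher too, with adjusted p from 4.25e-05 to 0.00169. Tpp1 was at 39.5, 81.9, 51.7 and 48.5 CPM in the lowest quartile and at 37.2, 41.1, 58 and 42.6 in the highest quartile. Tpp1, a tripeptidyl peptidase, did not pass, at -0.11 (SE 0.14, adjusted p = 0.504), and its ratio was under 1 on day 7 alone.

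**Figure D2:**
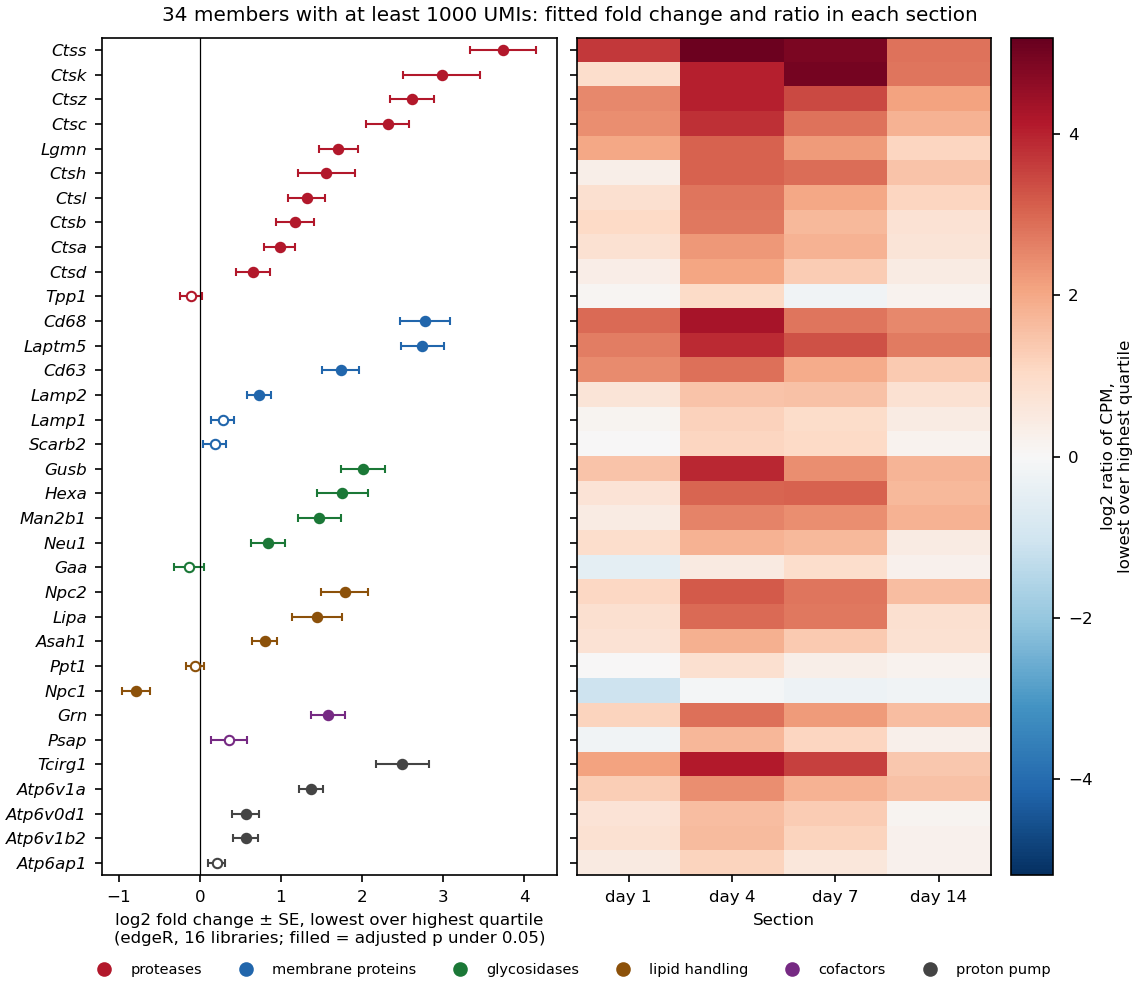
Left, log2 fold change with its SE (x axis) for each of the 34 tested members (y axis, grouped by role), lowest over highest quartile, from edgeR on 16 libraries, with filled points for an adjusted p under 0.05. Right, log2 ratio of CPM in each section (x axis) as colour. Ctss (3.74) and Ctsk (2.98) lead the list, Npc1 (-0.78) is the one filled point left of 0, and the day 4 column holds the highest ratio for most members.

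Of the membrane proteins, 4 of 6 were higher, against 35.2% of all genes tested. The 4 include Cd68, which reached the UMI minimum only through the lowest quartile. Cd68 was at 83.7, 299, 94.5 and 41.3 CPM in the lowest quartile and at 11, 15.5, 13.8 and 7.38 in the highest quartile. Laptm5 was at 90.3, 246, 214 and 74.9 CPM in the lowest quartile and at 14.1, 16.6, 21.9 and 11.7 in the highest quartile. Cd68, encoding macrosialin of macrophage lysosomes, was higher by 2.78 (SE 0.31, adjusted p = 3.48e-05), and Laptm5, encoding a lysosomal transmembrane protein of blood cells, by 2.74 (SE 0.26, adjusted p = 1.93e-05), with no overlap between quartiles in either.

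Cd63 was at 752, 966, 613 and 249 CPM in the lowest quartile and at 137, 133, 162 and 96.1 in the highest quartile. Cd63, encoding a tetraspanin of late endosomes and secretory granules, was higher by 1.74 (SE 0.23, adjusted p = 7.21e-05), and differed already on day 1, by a ratio of 5.5 (95% interval 4.94 to 6.14). Lamp1 and Lamp2 encode the main glycoproteins of the lysosomal membrane, and Lamp2 was higher, at 0.73 (SE 0.15, adjusted p = 0.000875). Lamp1 was at 403, 788, 680.1 and 429 CPM in the lowest quartile and at 365, 340.3, 353 and 323 in the highest quartile. Lamp1 did not pass at 0.28 (SE 0.14, adjusted p = 0.0964), but passed with total UMIs, with deciles of spots and without the day 1 section. Scarb2 was at 89.9, 189, 152 and 91.7 CPM in the lowest quartile and at 89.4, 87.7, 74.5 and 80.2 in the highest quartile. Scarb2, the sorting receptor of glucocerebrosidase, did not pass, at 0.18 (SE 0.14, adjusted p = 0.258), but passed with total UMIs (0.59, adjusted p = 0.00834) and with deciles of spots (0.46, adjusted p = 0.00803).

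Of the 5 glycosidases tested, 4 were higher, against 35.2% of all genes tested. The 4 include Gusb and Neu1, which reached the UMI minimum only through the lowest quartile. Hexa was at 87.3, 418, 441 and 141 CPM in the lowest quartile and at 54, 51.1, 52.6 and 43.3 in the highest quartile. Hexa, encoding the alpha subunit of beta-hexosaminidase, was higher by 1.76 (SE 0.31, adjusted p = 0.000372), with no overlap. Gusb, beta-glucuronidase (2.02), Man2b1, an alpha-mannosidase (1.48), and Neu1, a sialidase (0.84), were higher as well, with adjusted p from 8.5e-05 to 0.00358. Gaa was at 138, 190.0, 265 and 155 CPM in the lowest quartile and at 196, 139, 141 and 134 in the highest quartile. Gaa, which encodes the glycogen-degrading alpha-glucosidase, did not pass, at -0.13 (SE 0.18, adjusted p = 0.528), and it was lower in the lowest quartile on day 1 and higher on the other days.

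Gla, alpha-galactosidase A, and Glb1, beta-galactosidase, entered the test when the minimum was set at 10 UMIs. Gla was at 2.92, 22.1, 6.12 and 3.84 CPM in the lowest and 1.03, 1.84, 1.54 and 0.476 in the highest quartile, and its log2 fold change in that test was 1.98 (SE 0.45, adjusted p = 0.00145). Glb1 was at 15.3, 83, 34.7 and 22.6 CPM in the lowest and at 14.4, 12.1, 7.3 and 10.9 CPM in the highest quartile, with a log2 fold change of 0.94 (SE 0.27, adjusted p = 0.00963). Both were higher in the lowest quartile in 4 of 4 sections, on few UMIs.

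Lipid handling held the one member that was lower. Npc1 was at 27, 61.6, 43.5 and 49.4 CPM in the lowest quartile and at 57.4, 65.3, 51.8 and 55.7 in the highest quartile. Npc1, the membrane protein that exports cholesterol from the lysosome, had a log2 fold change of -0.78 (SE 0.17, adjusted p = 0.00131), and of the CPM ratios that of day 1 was lowest, at 0.471 (95% interval 0.353 to 0.622), while the intervals of the other days held 1. With total UMIs its log2 fold change was -0.37 (adjusted p = 0.0621), so that its call depends on the scaling. Npc2 was at 132, 551, 386 and 149 CPM in the lowest quartile and at 62.3, 60.1, 55.3 and 49.5 in the highest quartile. Npc2, the soluble partner that hands cholesterol to Npc1, was higher by 1.79 (SE 0.29, adjusted p = 0.000217), with no overlap between quartiles.

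Lipa, which encodes the acid lipase that frees cholesterol and fatty acids (1.45), and Asah1, the acid ceramidase (0.80), were higher, at adjusted p of 0.00126 and 0.000656. Ppt1 was at 68, 115, 78.2 and 61.4 CPM in the lowest quartile and at 66.7, 63.7, 62.6 and 54.7 in the highest quartile. Ppt1, which removes fatty acids from proteins, did not pass at -0.06 (SE 0.11, adjusted p = 0.623), and its direction turned with the setting, since it was higher with total UMIs (0.35, adjusted p = 0.042) and lower with genes of at least 10 UMIs (-0.32, adjusted p = 0.0494).

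Of the 2 cofactors, 1 was higher, against 35.2% of all genes tested. Psap was at 798, 2213, 1737 and 756 CPM in the lowest quartile and at 917, 678, 802 and 629.5 in the highest quartile. Psap, the precursor of the saposins that present sphingolipids to their hydrolases, did not pass at 0.36 (SE 0.23, adjusted p = 0.17), and on day 1 it was lower in the lowest quartile, by a ratio of 0.87 (95% interval 0.822 to 0.921). It passed with total UMIs, with deciles of spots and without the day 1 section. Grn was at 229, 824, 569 and 243 CPM in the lowest quartile and at 101, 114, 123 and 79.5 in the highest quartile. Grn, encoding progranulin, was higher by 1.58 (SE 0.21, adjusted p = 7.26e-05), in 4 of 4 sections and without overlap.

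For the proton pump, 4 of 5 tested genes were higher, against 35.2% of all genes tested. The 4 include Tcirg1 and Atp6v1a, which reached the UMI minimum only through the lowest quartile. Atp6ap1 was at 169.9, 226, 172 and 120.0 CPM in the lowest quartile and at 124, 102, 114 and 102 in the highest quartile. Atp6v0d1 was at 76, 130.1, 109 and 47 CPM in the lowest quartile and at 46.8, 42.4, 43.8 and 42.6 in the highest quartile. Atp6ap1, an accessory subunit of the pump, did not pass, at 0.21 (SE 0.11, adjusted p = 0.0994), but passed with total UMIs (0.62, adjusted p = 0.00238). Atp6v0d1, the widely expressed form of a stalk subunit, was higher by 0.57 (SE 0.17, adjusted p = 0.00958) but not without the day 4 section (0.44, adjusted p = 0.077) or the day 7 section (0.47, adjusted p = 0.0714).

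Tcirg1, the membrane subunit known from osteoclasts and activated macrophages, had the largest fold change of the tested pump genes, 2.49 (SE 0.32, adjusted p = 7.37e-05). Atp6v1a, the catalytic subunit (1.38), and Atp6v1b2, its partner in the catalytic ring (0.56), were higher, with adjusted p of 2.76e-05 and 0.00554. Atp6v0d2, the form of the stalk subunit known from osteoclasts and some macrophages, was at 2.19, 17.4, 8.84 and 2.4 CPM in the lowest quartile and had 1, 0, 0 and 1 UMIs in the highest, where a count of 0 allows up to 0.79 CPM on day 4 and 1.15 CPM on day 7. In the test with a minimum of 10 UMIs its log2 fold change was 4.52 (SE 0.77, adjusted p = 0.000105), on 87 UMIs in all.

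Other lysosome-related genes, not members, were read for comparison. They include 5 cathepsin inhibitors and 8 transcription factors and Ragulator subunits, so not all encode proteins found inside lysosomes. Of 72 such genes, 44 were tested, and 16 were higher, 8 lower and 20 not called, with a median log2 fold change of 0.22. Over all genes tested, 35.2% were higher and 32.5% lower. The largest were Serpina3n, a secreted inhibitor that binds cathepsin G, at 3.39 (SE 0.56, adjusted p = 0.000252), Ifi30, a lysosomal thiol reductase of antigen processing, at 2.53 (SE 0.26, adjusted p = 2.43e-05), and Cstb, the cytosolic cathepsin inhibitor cystatin B, at 2.08 (SE 0.25, adjusted p = 4.8e-05). The smallest among those called were Mitf, a transcription factor related to TFEB, at -1.17 (SE 0.22, adjusted p = 0.000466), Smpd1, the acid sphingomyelinase, at -0.74 (SE 0.15, adjusted p = 0.00104), and Rnaset2b, a ribonuclease, at -0.61 (SE 0.23, adjusted p = 0.0341). Rnaset2b has a near-identical copy, Rnaset2a, so the split of reads between them is uncertain. With total UMIs Mitf (-0.77, adjusted p = 0.00274) and Smpd1 (-0.34, adjusted p = 0.0431) stayed lower, whereas Rnaset2b did not pass (-0.24, adjusted p = 0.411). Of the 11 other pump subunits tested, 4 were higher and 3 lower, with a median of 0.22, and of 7 transcription factors and Ragulator subunits tested, none was higher and 1 was lower. The 3 lower pump subunits, Atp6v1d, Atp6v1g1 and Atp6v1e1, did not pass with total UMIs (-0.06, 0.02 and 0.12, adjusted p from 0.368 to 0.889). Tfeb itself was at -0.21 (SE 0.18, adjusted p = 0.301).

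A total of 5 members also differed between the highest quartile and the second-lowest, whose Myh6 and Myl2 shares came next after the lowest. The log2 fold changes by edgeR were those of Laptm5 (1.35, SE 0.27, adjusted p = 0.0265), Ctsz (1.31, SE 0.26, adjusted p = 0.0281), Ctss (1.71, SE 0.40, adjusted p = 0.0422), Ctsc (1.10, SE 0.27, adjusted p = 0.0459) and Cd63 (0.91, SE 0.22, adjusted p = 0.0464), all of them higher. In the second-lowest quartile Cd63 was at 455, 327, 304 and 93.2 CPM and Ctss at 64.9, 116, 65.5 and 9.51 CPM, both between their levels in the lowest and the highest quartile on days 1, 4 and 7. The 5 were among 34 tested members, against 3.34% of all genes that were higher. None of these calls was left without the day 1, the day 4 or the day 7 section. In those fits 0, 0 and 1 of all 4767 genes tested were called, so the loss was not particular to members. Without the day 14 section 10 members were higher and 1 was lower, against 11.8% and 6.94% of all genes. In the fit of all 4 sections the median log2 fold change was 0.46 over the members and 0.02 over all genes.

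To ask whether members went with macrophage or with collagen RNA, the lowest quartile of each section was split at the median of the summed share of the 15 macrophage markers, and separately at the median of Col1a1 and Col3a1, the main fibrillar collagens of scar. The members summed to 0.899%, 2.95%, 1.96% and 1.54% of UMIs in the macrophage-marker-high spots and to 0.63%, 1.44%, 0.845% and 0.393% in the macrophage-marker-low spots, ratios of 1.43, 2.04, 2.32 and 3.92. Between collagen-high and collagen-low spots the ratios were 1.15, 1.39, 1.81 and 3.71. Each split also moved the markers of the other cell type. Fibroblast markers were 1.29, 1.33, 1.88 and 12.5 times higher in the macrophage-marker-high spots, and macrophage markers were 1.25, 1.54, 1.99 and 10.1 times higher in the collagen-high spots. Neutrophil markers were 134 and 91 times higher on day 14 in the macrophage-marker-high and the collagen-high spots. The 2 sets of spots of a split also differed in cardiomyocyte markers, and on day 14 these made up 1.16% of the macrophage-marker-high spots and 4.64% of the low ones.

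Ctss was 3.33, 3.74, 6.38 and 22 times higher in the macrophage-marker-high spots on days 1, 4, 7 and 14. Between collagen-high and collagen-low spots its ratios were 1.09, 1.4, 3.06 and 20.1. On day 1 the counting interval was 2.64 to 4.22 for the macrophage split and 0.883 to 1.34 for the collagen split, the latter of which holds 1. Cd68 had ratios of 2.27, 3.65, 5.32 and 12 for the macrophage split and 1.21, 1.67, 2.58 and 8.94 for the collagen split. Ctsk had ratios of 1.29, 1.8, 2.36 and 18.3 for the macrophage split and 2.98, 1.56, 2.91 and 23.3 for the collagen split, resting on day 1 on 15 against 15 UMIs in the first and 22 against 8 UMIs in the second. Npc1 had ratios of 0.878, 1.71, 1.82 and 1.32 for the macrophage split and 1.14, 1.35, 1.59 and 1.31 for the collagen split, with counting intervals on day 1 of 0.533 to 1.43 and 0.705 to 1.86, both of which hold 1.

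In 30 of 34 tested members CPM were higher in the macrophage-marker-high spots in all 4 sections, against 36% of all genes tested, and in 31 of 34 they were higher in the collagen-high spots, against 31.8%. The fitted median of the members was 1.05 for the macrophage split and 0.62 for the collagen split, with 0.03 and about 0 over all genes. Without the day 14 section the members' median was 0.77 for the macrophage split and 0.34 for the collagen split. The largest log2 fold changes were 2.37 (SE 0.42) for Ctss, 1.94 (SE 0.33) for Cd68 and 1.73 (SE 0.39) for Ctsc in the macrophage split, and 1.65 (SE 0.54) for Ctsk in the collagen split. With 8 libraries, edgeR called no gene in either split at an adjusted p under 0.05. At an unadjusted p under 0.05, 22 members were higher in the macrophage split (9.94% of all genes) and 6 in the collagen split (6.15% of all genes). DESeq2 called 18 members higher in the macrophage split, against 2.48% of all genes, and 3 in the collagen split, against 1.47%. In the macrophage split edgeR called 12 members higher without the day 1 section, against 2.08% of all genes, and 6 without the day 14 section, against 0.862%. The difference between the splits was not tested.

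**Figure D3:**
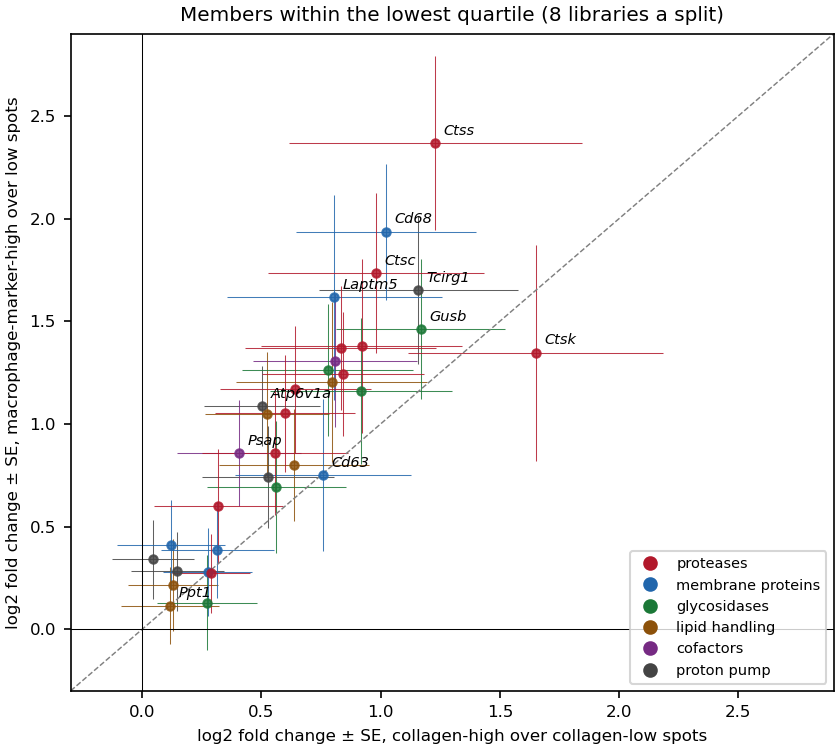
Log2 fold change with its SE for each of the 34 tested members between macrophage-marker-high and low spots (y axis) and between collagen-high and low spots (x axis) of the lowest quartile, edgeR on 8 libraries a split, coloured by role. The dashed line marks equal values. Ctss lies at 2.37 on the y axis and 1.23 on the x axis, and Ctsk at 1.35 and 1.65.

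The last question was how levels in a given kind of tissue differed by day. With 1 section a day no test could be made, and the intervals given cover counting alone. In the lowest quartile, 34 of the 37 members were highest on day 4, and Ctsk, Hexa and Gaa on day 7. Of the 34 tested members 31 were highest on day 4, against 34.1% of all genes tested. From day 1 to day 4, 26 of the 34 tested members were at least 2-fold higher, against 10.7% of all genes tested. Among the 26 were Atp6v1a, Cd68, Ctsk, Gusb and Tcirg1, which reached the UMI minimum only through this quartile. The median ratio was 2.72 over the members and 1.09 over all genes. Ctsk had the largest ratio, going from 11 to 170.0 CPM. From day 4 to day 7, Ctsh, Cd68 and Lgmn were at least 2-fold lower (3.21% of all genes were). None of the 34 was 2-fold higher, as were 3.77% of all genes. In the highest quartile only Ctss, of the 34, was 2-fold higher on day 4 than on day 1 (0.986% of all genes were). None of the 34 passed 2-fold in either direction between days 4 and 7 or days 7 and 14. Few of all genes did so either. From day 4 to day 7, 2.1% were higher and 0.692% lower, and from day 7 to day 14, 0.336% and 2.33%.

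From day 7 to day 14, 21 members were at least 2-fold lower in the lowest quartile, against 20.4% of all genes, with a median ratio of 0.439 over the members and 0.743 over all genes. This lower level was not seen in spots chosen by a fixed limit. Spots with a Myh6 and Myl2 share under 0.5% numbered 62, 337, 407 and 176 on days 1, 4, 7 and 14, all of them in the lowest quartile. Their members summed to 0.973% (95% exact binomial interval 0.934% to 1.01%), 2.35% (2.33% to 2.37%), 1.37% (1.35% to 1.39%) and 1.82% (1.77% to 1.87%) of UMIs. The sum was then 1.33 times higher on day 14 than on day 7, where the quartiles gave 0.454 times. With the lowest decile of spots it was 1.26 times higher. The higher sum on day 4 than on day 1 and the lower sum on day 7 were seen in quartiles, deciles and fixed-limit spots alike. The fixed-limit spots of days 1 and 4 differed in markers, however. Fibroblast markers summed to 0.276% on day 1 and 4.23% on day 4, macrophage markers to 0.21% and 0.968%, and cardiomyocyte markers to 1.75% and 0.744%. The part of such differences in the members' sums was not tested.

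In the spots under 0.5%, 24 members were highest on day 4, 12 on day 14 and 1 on day 1. Of the tested members these were 21 on day 4, against 20.5% of all genes tested, and 12 on day 14, against 31.8%. Ctss was at 118, 963, 440.5 and 450.0 CPM there on days 1, 4, 7 and 14. Cd68, at 122, 363, 103 and 197, also stood highest on day 4. Of the 12 highest on day 14, Gaa and Laptm5 had a counting interval above that of day 4, and the intervals of the others overlapped. Ctsk was at 26.2, 194, 181 and 227 and Laptm5 at 153, 284, 215 and 417 CPM. The day 14 spots were shallow, with a median of 1227.5 UMIs against 2841 on day 7, and the intervals of Ctsk on those days overlapped. Macrophage markers summed to 0.611% on day 7 and 1.07% on day 14 in these spots, neutrophil markers to 0.00766% and 0.114%, fibroblast markers to 4.11% and 4.14%, and fast skeletal muscle markers to 2.25% and 0.00855%. Their part in the difference between days was not tested.

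**Figure D4:**
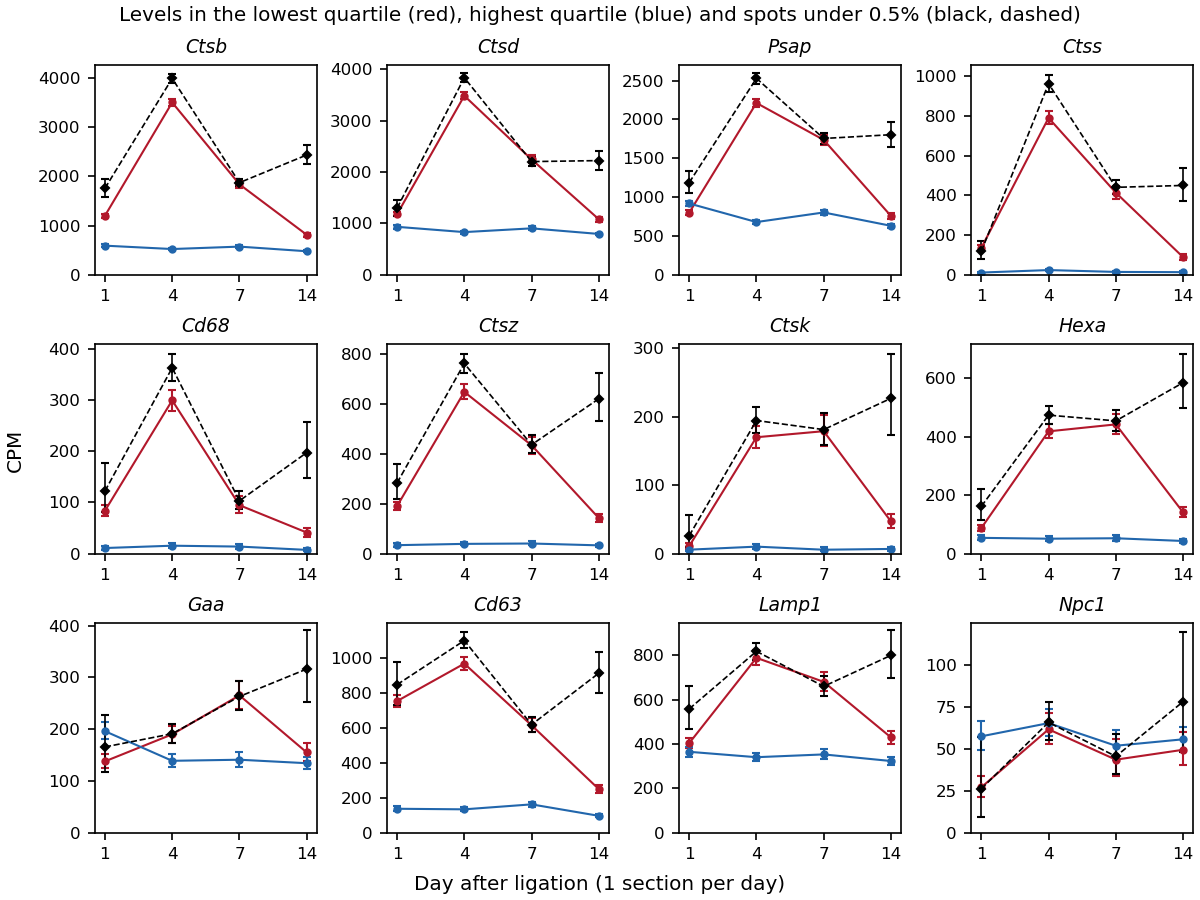
CPM (y axis) on days 1, 4, 7 and 14 (x axis, 1 section a day) for 12 members, in the lowest quartile (red), the highest quartile (blue) and spots with a Myh6 and Myl2 share under 0.5% (black, dashed). Bars are 95% Poisson intervals for counting error. For Ctss the lowest quartile ran from 135 to 791, 414 and 88.3, while Npc1 stayed between 27 and 65.3 in both quartiles.

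On day 1 members went in both directions. In that section 27 of 37 had a ratio of lowest over highest quartile with a counting interval above 1, 3 had one below 1 (Gaa, Npc1 and Psap) and 7 had one that held 1. Of the 34 tested members 27 lay above 1, against 50.1% of all genes tested, and 3 below, against 22.5%. The 3 highest ratios on day 1 were those of Ctss at 12.6 (95% interval 8.75 to 18.9), Cd68 at 7.6 (95% interval 5.24 to 11.4) and Laptm5 at 6.4 (95% interval 4.58 to 9.14). In the day 4, 7 and 14 sections the interval lay above 1 for 36, 34 and 30 of the 37 members, and for none did it lie below 1. Among the 34 tested members 33, 31 and 27 lay above 1, against 61.8%, 50.6% and 35.1% of all genes tested. The median ratio over the 37 was 1.76, 6.79, 3.89 and 2.15 on days 1, 4, 7 and 14. Neutrophil markers, which summed to 0.0403% of the lowest quartile on day 1, were at 0.00711% to 0.0161% on the other days.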

How the data were processed

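Per the labels, the authors deposited UMI counts per gene and spot under tissue, made with Space Ranger 1.3.0 on mm10, without normalization, and the notes also list Seurat 4.1.1. Spots in which over 1% of UMIs came from 8 hemoglobin genes were left out here, the remaining spots were ranked by their Myh6 and Myl2 share within a section, and UMIs were summed per quartile or split. Genes with at least 1000 UMIs were kept (4769), and those used for ranking or splitting were not tested, which left 4767 for the quartiles and the collagen split and 4758 for the macrophage split. edgeR 4.0.16 (TMM, quasi-likelihood, section as block, Benjamini-Hochberg) in R 4.3.3 gave fold changes, and DESeq2 1.42.0 was an alternative. The SE of an edgeR fold change was derived here, as its absolute value over the square root of the test's F value. The section block pairs spots of the same mouse. Members and lists were chosen with earlier results of these data known.

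All members are named, and values in every section are given for the 2 members with the most UMIs of each role and for the 5 largest and 5 smallest fold changes. Depth was 9292678 to 15713779 UMIs a section. Intervals are 95%, cover counting error only, and take UMIs as independent. On simulated counts with 200 genes changed by 1 on the log2 scale, the quartile test recovered 182, the macrophage split 71 and the collagen split 37. False calls numbered 5, 6 and 1 in that order. The simulated sections did not differ, all genes shared a common spread and the other genes did not change. The data are not so, and these numbers do not give the power in them. Python 3.11.15, scipy 1.17.1 and matplotlib 3.10.9 were used. Images and the place of spots in the tissue were not analysed here. Promoters came from RefSeq and gene positions from GENCODE vM21, both on GRCm38.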

Additional observations from a re-analysis of the deposited data

Results flagged for a closer look

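Gaa and Psap were picked out because their counting intervals lay on opposite sides of 1 in different sections. The ratio of lowest over highest quartile was 0.703 (95% interval 0.615 to 0.802) for Gaa on day 1, against 1.37, 1.88 and 1.16 on days 4, 7 and 14. For Psap it was 0.87 (95% interval 0.822 to 0.921) on day 1, against 3.26, 2.17 and 1.2. With 1 section a day these differences between days were not tested.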

How the results depend on the processing

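The count of 26 members higher in the lowest quartile ran from 23 to 31 over the alternatives (24 to 28 when a section was left out). The share of all genes called higher ran from 23.8% to 54.1%, and the count of 31 came with total UMIs, where it was 54.1%. The count lower, 1, was 0 with total UMIs (19.7% of all genes) and 2 with genes of at least 10 UMIs (20.7%). Of single members, Ctsd, Atp6v0d1 and Atp6v1b2 lost their call in the fit with genes of at least 10 UMIs and in that of the lowest and highest quartiles alone, and Npc1 with total UMIs, while Lamp1, Scarb2, Psap, Atp6ap1 and Ppt1 gained a higher call with total UMIs, and Ppt1 a lower one with genes of at least 10 UMIs. Directions turned for Tpp1 (0.31), Gaa (0.26) and Ppt1 (0.35) with total UMIs and for Scarb2 (-0.079) and Atp6ap1 (-0.050) with genes of at least 10 UMIs. With a section left out, Tpp1 ran from -0.26 to 0.058, Gaa from -0.33 to 0.083 and Ppt1 from -0.13 to 0.0011. The mean log2 ratio of the summed share stayed between 1.02 and 1.85. In the second-lowest quartile the 5 calls became 9 higher and 1 lower with DESeq2, against 7.91% and 2.14% of all genes. They became 2 with total UMIs (1.36% of all genes) and 2 without skeletal muscle spots (1.02%). They became 0 without the section block (0% of all genes) and 0 with spots of at least 1000 UMIs (0.633%). With a section left out they ran from 0 to 10 higher (0% to 11.8% of all genes) and from 0 to 1 lower (0% to 6.94%). In the macrophage split, members called were 18 with DESeq2 (2.48% of all genes) and 7 with genes of at least 10 UMIs (0.968%). With a section left out they were 0 to 12 (0% to 2.08% of all genes). In the collagen split DESeq2 called 3 (1.47% of all genes). Between days, with alternatives chosen after seeing the data, the ratio of the sum was 2.76 for day 4 over day 1 (2.41 in spots under 0.5%, 2.69 with the mean of spot shares, 3.49 in deciles), 0.658 for day 7 over day 4 (0.582 in spots under 0.5%, 0.493 in deciles) and 0.454 for day 14 over day 7 (1.33 in spots under 0.5%, 0.678 with the mean of spot shares, 1.26 in deciles). The causes of these shifts were not tested. The fits of quartiles and splits have the section as a block. Without that block, counts of members at an adjusted p under 0.05 changed only in the second-lowest quartile. At an unadjusted p under 0.05, members higher went from 22 to 11 in the macrophage split (4.73% of all genes). In the collagen split they went from 6 to 0 (1.53% of all genes). Between days, no paired analysis was possible because there is 1 section a day and the labels give no number that days share. The limit of the sums is 1 mouse a day more than their number of UMIs, whereas Gla and Atp6v0d2 rest on few UMIs. Depth differed between the spots compared. Median UMIs per spot were 6389, 6524.5, 2826 and 2329.5 in the lowest quartile on days 1, 4, 7 and 14. In the highest quartile they were 5971, 9221, 5515 and 8278. On day 14 the macrophage-marker-high spots held 406606 UMIs and the low ones 1677361. The part of depth in the ratios of that day was not tested.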

Other observations

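The members' sum was not made up alike in every section. In the lowest quartile proteases gave 50.7%, 57.7%, 51.1% and 49.7% of member UMIs on days 1, 4, 7 and 14. Membrane proteins gave 20.9% on day 1 and 13.5% on day 4, and Cd63 alone 10.1% and 4.68%. Hexa gave 1.17%, 2.02%, 3.25% and 2.29%. In the highest quartile Hexa stayed between 1.16% and 1.24% of member UMIs, and Ctsd made up 20.1% to 21.2%. These shares have no replicate within a day.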
